A study of Homo sapiens with 9 samples.

Results

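The RNA of 10 genes that build contractile actin bundles and tie them to the cell's attachment sites was followed in DU145 cells, an established human prostate cancer cell line, with and without knockdown of the Wnt receptor gene *FZD6*. The genes were taken as a list of symbols, by a rule that uses no measured value, although the list was drawn up with earlier results of these data known. It holds the non-muscle myosin II heavy chains *MYH9* and *MYH10*, the regulatory light chains *MYL9* and *MYL12A*, the linkers *TLN1* (talin-1) and *VCL* (vinculin), the actin crosslinkers *ACTN1* and *ACTN4* (alpha-actinins), and the actin-associated *ZYX* (zyxin) and *TAGLN2* (transgelin-2). They are 10 of the 27902 genes in the tables, and all 10 were among the 12509 tested, which averaged at least 1 FPKM (fragments scaled by the length of the transcript and by the depth of the library). RNA-seq was done on 9 libraries: 3 from cells carrying a scrambled shRNA (control), 3 from cells with *FZD6* shRNA1 and 3 from cells with *FZD6* shRNA2. All 9 libraries carry the genotype label WT and differ in the shRNA only, and no drug treatment is labelled. The methods describe constitutive and doxycycline-inducible lentiviral shRNA vectors without saying which was used here. Each group is listed as a triplicate without mention of separate cultures, so p-values measure only the spread between these libraries, which may be technical.

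Non-muscle myosin II is a motor made of heavy chains, which bind actin and split ATP, and of light chains, which set whether the motor is active. Alpha-actinin bundles the filaments that myosin pulls on. At focal adhesions, talin joins integrins to actin, vinculin strengthens that joint under load, and zyxin gathers where the filaments are strained. In bulk RNA, fewer cells of a type and less RNA per cell cannot be told apart.

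The knockdown was seen in every library. *FZD6* stood at 20.5 ± 0.441 FPKM in control cells, 9.83 ± 0.376 with shRNA1 and 8.11 ± 0.598 with shRNA2 (SD, n = 3 each). The epithelial markers *KRT8*, *KRT18*, *EPCAM*, *CDH1* and *CLDN7* were all above 1 FPKM, with *KRT8* between 202 and 238 FPKM. Of 7 fibroblast and smooth muscle markers 6 were below 1 FPKM in every library, and *MYH11* reached 1.05 FPKM. The summed level of these 7 markers spanned 1.65 to 1.96 FPKM in control and 1.55 to 1.98 FPKM in knockdown libraries. Among the endothelial and immune markers *PTPRC* was listed at 0 throughout, *PECAM1* and *VWF* did not exceed 0.0214 FPKM, and *CD68* was 17.4 FPKM in control against 23.7 FPKM in knockdown libraries on average. The part of the *CD68* difference in the results was not tested. Depth, estimated from the confidence bounds in the tables, was 33.8 to 42.4 M fragments per library.

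The windows around the transcription start sites of these genes were searched for short motifs and set beside those of other genes. RefSeq windows (build GRCh38.p14, 250 bases before to 50 bases after a start) were matched for 9 of the 10 genes, in 17 windows. They were searched on both strands for GGGCGG, the GC box read by SP1-family factors, for the CArG box read by serum response factor (SRF), for TATAAA and for GGAATG, the element of TEAD factors. The GC box was present in at least 1 window of all 9 genes and in 11 of the 17 windows, beside 45.0% of all 35116 windows and 67.8% of windows of tested genes. These shares are per window, and no share of genes was computed to set beside the 9. Only the third window of *ACTN1* held a CArG box, 171 bases upstream of that start, beside 1.29% of all windows and 1.09% of windows of tested genes. GGAATG was found in 5 of the 17 windows, beside 14.0% of all windows and 11.3% of windows of tested genes. TATAAA was in 1 window, the same *ACTN1* window, beside 11.5% of all windows and 5.91% of windows of tested genes. A match describes the letters of a window and not a bound factor. The windows printed here are those of the 3 genes that fell most, that of *ZYX*, whose level was not called in any comparison, and the *ACTN1* window with the CArG box. Capitals mark GC boxes, written CCGCCC where they lie on the other strand, and in *ACTN1* the CArG box.
MYH9, chr22:36387918-36388217, minus strand: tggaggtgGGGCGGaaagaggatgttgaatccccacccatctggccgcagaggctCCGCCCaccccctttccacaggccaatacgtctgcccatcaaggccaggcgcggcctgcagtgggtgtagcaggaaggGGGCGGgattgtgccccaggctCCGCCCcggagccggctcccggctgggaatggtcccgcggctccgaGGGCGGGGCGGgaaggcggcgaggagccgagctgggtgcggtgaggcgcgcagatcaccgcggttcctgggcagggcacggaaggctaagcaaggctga
MYH10, chr17:8630676-8630975, minus strand: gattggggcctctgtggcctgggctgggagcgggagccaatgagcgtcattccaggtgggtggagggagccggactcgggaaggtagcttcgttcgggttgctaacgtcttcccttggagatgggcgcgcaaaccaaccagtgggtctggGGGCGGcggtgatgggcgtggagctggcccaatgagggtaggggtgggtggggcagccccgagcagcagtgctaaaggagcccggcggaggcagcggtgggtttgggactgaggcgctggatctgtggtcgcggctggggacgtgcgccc
TLN1, chr9:35732146-35732445, minus strand: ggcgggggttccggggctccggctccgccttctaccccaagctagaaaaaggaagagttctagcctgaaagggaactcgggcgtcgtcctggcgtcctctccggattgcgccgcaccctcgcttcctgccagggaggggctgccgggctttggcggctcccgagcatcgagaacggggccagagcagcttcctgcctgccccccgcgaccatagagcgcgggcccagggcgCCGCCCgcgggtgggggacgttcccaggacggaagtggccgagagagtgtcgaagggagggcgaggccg
ZYX, chr7:143381095-143381394, plus strand: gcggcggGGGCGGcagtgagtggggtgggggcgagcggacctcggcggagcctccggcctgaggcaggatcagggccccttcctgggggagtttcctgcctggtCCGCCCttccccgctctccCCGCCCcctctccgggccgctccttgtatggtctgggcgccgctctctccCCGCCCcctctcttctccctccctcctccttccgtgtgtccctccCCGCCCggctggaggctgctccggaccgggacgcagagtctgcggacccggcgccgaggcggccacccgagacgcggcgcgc
ACTN1, chr14:68977517-68977816, minus strand: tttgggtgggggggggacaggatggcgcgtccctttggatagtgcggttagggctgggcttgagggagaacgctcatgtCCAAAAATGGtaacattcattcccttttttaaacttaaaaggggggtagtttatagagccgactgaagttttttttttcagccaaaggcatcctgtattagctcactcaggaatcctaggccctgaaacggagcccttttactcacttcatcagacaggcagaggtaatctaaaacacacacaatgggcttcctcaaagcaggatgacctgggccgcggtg
The *MYH9* window holds 6 GC boxes, of which the pair nearest the start overlap, and the *ZYX* window holds 5. The *MYH10* and *TLN1* windows hold 1 each, so the 3 genes that fell most differ in the number of these boxes. All 4 of these windows are rich in G and C, from 67.7% in *MYH10* to 76.0% in *ZYX*, against a median of 65.3% over windows of tested genes. The *ACTN1* window with the CArG box is at 49.3%.

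In control cells the 10 genes spanned a wide range of expression. Because FPKM is scaled by transcript length, these levels can be set side by side. *TAGLN2*, a small calponin-family protein that binds actin, was the highest at 857 ± 27.4 FPKM (SD, n = 3). *MYL12A* followed at 333 ± 9.40, *ACTN4* at 275 ± 3.52, *MYH9* at 202 ± 6.46 and *ACTN1* at 187 ± 2.76 FPKM. *TLN1* at 143 ± 4.11 and *ZYX* at 141 ± 4.09 FPKM could not be ordered, since their control libraries overlap. *VCL* at 69.2 ± 1.46, *MYL9* at 59.0 ± 2.11 and *MYH10* at 32.5 ± 0.956 FPKM made up the low end. Except for *TLN1* and *ZYX*, no neighbours in this order had overlapping control libraries. Within each pair of related genes 1 member was thus the main transcript: *MYH9* over *MYH10*, *MYL12A* over *MYL9*, and *ACTN4* over *ACTN1* by a smaller margin.

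Knockdown of *FZD6* lowered the myosin heavy chains and talin the most, while the light chains, *ACTN1*, zyxin and transgelin-2 were not called. *MYH9*, *MYH10*, *TLN1*, *VCL* and *ACTN4* fell in the 6 knockdown libraries against the 3 control libraries. That is 5 of 10 members called lower by limma at an adjusted p under 0.05, beside 7.1% of all tested genes called lower, and 0 of 10 called higher, beside 13.5% (20.6% in either direction). Of the 5 members not called, 3 had an unadjusted limma p under 0.05: *MYL12A* and *TAGLN2* were higher and *ACTN1* was lower. The median log2 fold change of the 10 members was −0.11, and that of all tested genes was 0.03. In 6 members, the 5 called and *ACTN1*, every knockdown library lay below every control library, an arrangement found in 9.46% of tested genes. No member had every knockdown library above every control library, which 16.4% of tested genes had. Over all tested genes 1690 were called higher and 888 lower, and with quantile normalization 1047 higher and 1058 lower. The 5 members stayed called lower under that scaling, *ACTN1* was called too (−0.13, limma adjusted p = 0.0135), and *MYL12A* (−0.01) and *TAGLN2* (−0.03) changed sign without a call.

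**Figure D1:**
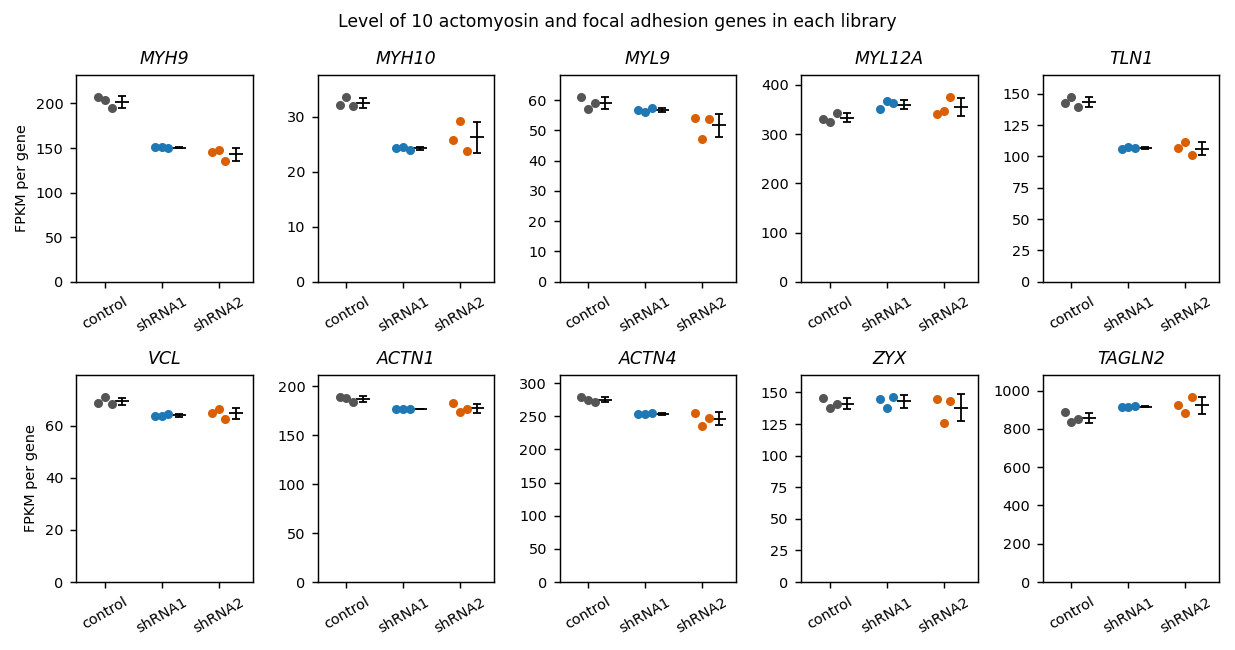
FPKM of each gene (y axis, starting at 0) in every library, by group (x axis); points are libraries and the bar beside them is the mean ± SD of 3 libraries. For *MYH9*, *MYH10* and *TLN1* the 6 knockdown points lie clearly under the 3 control points, while for *ZYX* the groups overlap.

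*MYH9* encodes the heavy chain of non-muscle myosin IIA. Its level was 208, 203 and 195 FPKM in control libraries 1 to 3, 151, 151 and 149.8 FPKM with shRNA1, and 146, 148 and 135 FPKM with shRNA2. No knockdown library came near the lowest control library. The mean was 27.3% lower over both shRNAs, 25.4% with shRNA1 and 29.2% with shRNA2, and the log2 fold change of knockdown against control was −0.46 (SE 0.041, limma adjusted p = 0.000789). *MYH10*, the heavy chain of myosin IIB, was at 32.1, 33.6 and 31.8 FPKM in control, 24.2, 24.4 and 24.0 FPKM with shRNA1, and 25.7, 29.3 and 23.7 FPKM with shRNA2. The groups did not overlap, although replicate 2 of shRNA2 stood above the other knockdown libraries. Its log2 fold change was −0.36 (SE 0.064, limma adjusted p = 0.00777). Both heavy chains were called lower with each shRNA alone. The *MYH10* call with shRNA2 was lost without replicate 2 of the control (limma adjusted p = 0.0553) and when only the 6 libraries compared were fitted (limma adjusted p = 0.0547).

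Neither regulatory light chain was called over both shRNAs. *MYL12A* was measured at 331, 326 and 344 FPKM in control, 351, 367 and 362 FPKM with shRNA1, and 341, 348 and 376 FPKM with shRNA2. Of the 6 knockdown libraries 5 lay above every control library, and the difference did not pass adjustment (log2 fold change 0.10, SE 0.037, limma adjusted p = 0.0881, 95% interval 0.02 to 0.18). *MYL9*, the light chain best known from smooth muscle, stood at 61.1, 56.9 and 59.1 FPKM in control, 56.8, 56.2 and 57.4 FPKM with shRNA1, and 54.0, 47.2 and 53.6 FPKM with shRNA2. Of the 6 knockdown libraries 5 lay below every control library, all 3 with shRNA2 among them, and replicate 3 of shRNA1 overlapped with the control libraries. Over both shRNAs the log2 fold change was −0.12 (SE 0.060, limma adjusted p = 0.183), a larger change than that of *VCL*, which was called, with a wider spread. *MYL9* was called lower with shRNA2 (log2 fold change −0.19, SE 0.054, limma adjusted p = 0.0351) and not with shRNA1 (−0.05, limma adjusted p = 0.514). The direct test between the shRNAs did not pass adjustment (difference −0.14, 95% interval −0.26 to −0.01, limma adjusted p = 0.183), so the effects were not shown to differ. The shRNA2 call of *MYL9* was lost in 6 of the 9 fits that leave out 1 library: those without replicates 1, 2 or 3 of the control (limma adjusted p = 0.106, 0.0543 and 0.0861) and without replicates 1, 2 or 3 of shRNA1 (limma adjusted p = 0.0566, 0.0569 and 0.0564). Over 19 alternative settings this call was kept in 10. It was kept with the trend in transcript length removed, if its length holds (−0.22, limma adjusted p = 0.0258), and with quantile normalization (−0.23, limma adjusted p = 0.0174). With no filter (limma adjusted p = 0.0558) and with median centring (limma adjusted p = 0.0569) it was lost.

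Talin-1 fell about as much as the heavy chains. *TLN1* was at 143, 148 and 139 FPKM in control, 106, 107 and 106 FPKM with shRNA1, and 106, 111 and 101 FPKM with shRNA2. The mean was 25.8% lower with shRNA1 and 25.9% lower with shRNA2, and the log2 fold change over both was −0.43 (SE 0.034, limma adjusted p = 0.000490). Vinculin, which binds to stretched talin, changed far less. *VCL* was at 68.5, 70.9 and 68.3 FPKM in control, 63.6, 63.7 and 64.4 FPKM with shRNA1, and 64.8, 66.5 and 62.6 FPKM with shRNA2. The groups did not overlap, and the log2 fold change was −0.11 (SE 0.027, limma adjusted p = 0.0258). This call was lost without replicate 1, 2 or 3 of the control (limma adjusted p = 0.0675, 0.108 and 0.0561).

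Of the alpha-actinins, only *ACTN4* passed the test. Its values were 279, 275 and 272 FPKM in control, 253, 253 and 255 FPKM with shRNA1, and 255, 235 and 248 FPKM with shRNA2. Every knockdown library was below the control libraries, and the log2 fold change was −0.14 (SE 0.031, limma adjusted p = 0.0166). Without replicate 1 or 2 of the control the adjusted p was 0.0707 or 0.0622 by limma. *ACTN1* was at 189, 188 and 184 FPKM in control, 177, 176 and 177 FPKM with shRNA1, and 183, 174 and 177 FPKM with shRNA2. Its groups did not overlap either, but the difference was small and just missed the threshold (log2 fold change −0.08, SE 0.024, limma adjusted p = 0.0544). *ACTN1* passed in 5 of 19 alternative settings. Without replicate 1 of shRNA2 the limma adjusted p was 0.0364, and with quantile normalization it was 0.0135. With no filter on FPKM the limma adjusted p was 0.0260, with a filter of 5 FPKM 0.0354, and with a trended prior 0.0354.

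*ZYX* was level across the groups within its spread. It was at 146, 137 and 141 FPKM in control, 145, 137 and 146 FPKM with shRNA1, and 145, 126 and 144 FPKM with shRNA2, so that the groups overlapped. The log2 fold change was −0.01 with a 95% interval of −0.12 to 0.10 (limma adjusted p = 0.914). *TAGLN2* was at 887, 833 and 852 FPKM in control, 912, 915 and 917 FPKM with shRNA1, and 922, 880.2 and 966 FPKM with shRNA2. All knockdown libraries but replicate 2 of shRNA2 were above the control libraries, and the log2 fold change was 0.10 (SE 0.034, limma adjusted p = 0.0684). Without that replicate the difference passed (0.11, limma adjusted p = 0.0332).

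Taking each shRNA on its own, the members called were much the same. With shRNA1, *MYH9*, *MYH10*, *TLN1*, *VCL* and *ACTN4* were called lower, 5 of 10 beside 7.19% of tested genes, and 0 were called higher, beside 11.7% (18.8% in either direction). With shRNA2, the same 5 and *MYL9* were called lower, 6 of 10 beside 11.4%, and 0 were called higher, beside 15.3% (26.7% in either direction). Both comparisons use the same 3 control libraries. The heavy chain and talin changes were of like size: *MYH9* had a log2 fold change of −0.42 with shRNA1 and −0.50 with shRNA2, *TLN1* of −0.43 with each, and *MYH10* of −0.41 and −0.30. The smaller calls rested on few libraries: with shRNA1 the calls of *VCL* and *ACTN4* were each lost in 7 of the 9 fits that leave out 1 library, and with shRNA2 that of *VCL* was lost in 8 of 9. In the direct test of shRNA2 against shRNA1, 0 of 10 members were called by limma in either direction, beside 4.79% of tested genes called lower and 1.92% called higher (6.71% together). At an unadjusted p under 0.05, 1 member (*MYL9*) was lower. The 95% intervals of the difference ran from −0.17 to 0.02 for *MYH9*, from −0.05 to 0.26 for *MYH10* and from −0.09 to 0.09 for *TLN1*, so the data leave room for differences of that size between the shRNAs. The methods of the study asked for p under 0.01 without adjustment and for 1.2-fold or more. Applied here to log2(FPKM + 1), these criteria called *MYH9*, *MYH10* and *TLN1* lower, 3 of 10 members beside 1.78% of tested genes. They called 0 members higher, beside 1.1%. These shares are those of the re-analysis and not the counts that the study reported.

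**Figure D2:**
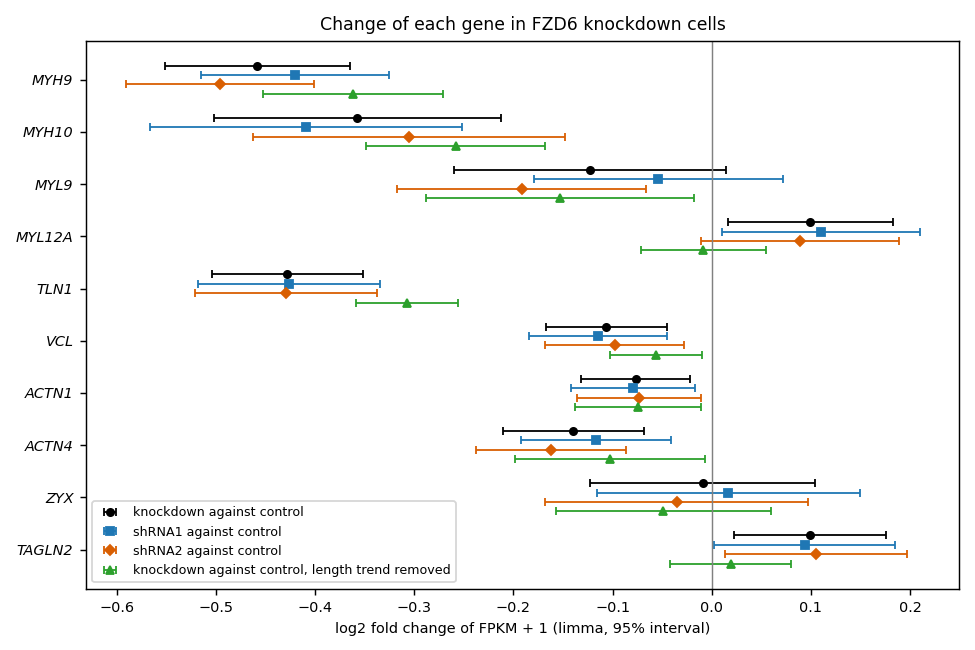
Log2 fold change of FPKM + 1 (x axis) of each gene (rows), with 95% intervals from limma, for knockdown against control, each shRNA against control, and knockdown against control with the trend in transcript length removed. The points of *MYH9*, *MYH10* and *TLN1* lie left of 0 with their whole interval in all 4 fits, and the triangles of *MYL12A* and *TAGLN2* lie close to 0.

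The order of the members changed with the knockdown. In each of the 3 control libraries *MYH9* was above *ACTN1*. In each of the 6 knockdown libraries it was below, at 135 to 151 FPKM against 174 to 183 FPKM. *TLN1*, which overlapped with *ZYX* in control cells, was at 101 to 111 FPKM against 126 to 146 FPKM for *ZYX* in knockdown cells, with no overlap.

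Ratios of related genes within a library do not depend on the scaling of that library. The ratio of *VCL* to *TLN1* moved the most: it was 0.479, 0.480 and 0.490 in control, 0.602, 0.594 and 0.605 with shRNA1, and 0.609, 0.598 and 0.620 with shRNA2. Each knockdown library was well above each control library, and the mean went from 0.483 ± 0.00565 (SD, n = 3) to 0.605 ± 0.00905 (SD, n = 6; exact permutation p = 0.0119, two-sided, which is the lowest value 6 libraries against 3 can reach, and 0.0317 adjusted over 4 ratios). The ratio of *MYL12A* to *MYL9* was 5.42, 5.73 and 5.82 in control, 6.17, 6.53 and 6.31 with shRNA1, and 6.31, 7.37 and 7.01 with shRNA2. These groups did not overlap either (means 5.65 ± 0.209 and 6.62 ± 0.471, exact permutation p = 0.0238, adjusted 0.0317). The ratio of *ACTN4* to *ACTN1* was slightly lower, from 1.46 to 1.48 in control and from 1.36 to 1.44 in knockdown libraries (exact permutation p = 0.0238, adjusted 0.0317). The ratio of *MYH10* to *MYH9* was 0.155, 0.165 and 0.163 in control, 0.160, 0.162 and 0.160 with shRNA1, and 0.176, 0.198 and 0.175 with shRNA2. It did not differ beyond its spread over all knockdown libraries (exact permutation p = 0.274), although the shRNA2 values lay above the rest. With any 1 control library left out the adjusted p of these 3 ratios was 0.0714 to 0.143, and without replicate 1 of shRNA2 it was 0.0714. Without replicate 3 of shRNA2 that of *ACTN4* to *ACTN1* was also 0.0714. With a library left out, the lowest p that this exact permutation test can reach is higher. The loss of these calls therefore does not by itself show a weaker difference. Removing the trend in transcript length took the call from *MYL12A* to *MYL9* and from *ACTN4* to *ACTN1*.

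**Figure D3:**
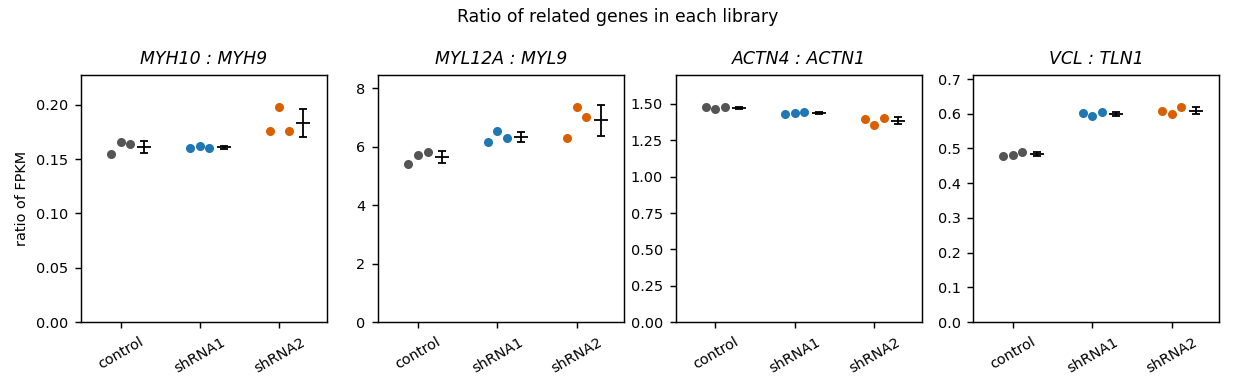
Ratio of FPKM within each library (y axis, starting at 0) for 4 pairs of related genes, by group (x axis), with points for libraries and the mean ± SD of 3 libraries beside them. The *VCL* to *TLN1* ratio steps from 0.479 to 0.490 in control up to 0.594 to 0.620 in knockdown libraries.

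Transcript length ordered the changes of these genes, as it did in the whole table. The members' lengths, from the GENCODE annotation and weighted by the FPKM of each accession, were 8823 bases for *TLN1*, 7665 for *MYH10*, 7554 for *MYH9*, 5494 for *VCL*, 4963 for *ACTN4*, 3754 for *ACTN1*, 2737 for *MYL9*, 2478 for *ZYX*, 1598 for *TAGLN2* and 1038 for *MYL12A*. Divided at 2643 bases, the median of the tested genes, 7 were long and 3 (*ZYX*, *TAGLN2*, *MYL12A*) short, with *MYL9* just above the division. The *MYL9* length is uncertain, since it comes from a GENCODE transcript paired with an older version of its main accession. All 5 members called lower were long. Among all tested genes 12.7% of the long ones and 1.46% of the short ones were called lower, and 20.8% of the short ones were called higher. The median log2 fold change was −0.14 over the 7 long members and 0.10 over the 3 short ones, against −0.02 over all 6147 long genes and 0.08 over all 6148 short ones. Spearman's rho between length and log2 fold change was −0.90 across the 10 members and −0.44 across 12295 genes, where genes share the same 9 libraries and are not independent. With *MYL9* counted as short, a choice made after its values were seen, the medians were −0.25 over 6 long and 0.05 over 4 short members. Without it rho across the other 9 members was −0.93.

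The long members that fell most did so by more than most genes of their length. The tested genes were divided by length into 10 classes of equal size. In the longest class, 6191 bases and over, the median log2 fold change was −0.10, against −0.46 for *MYH9*, −0.43 for *TLN1* and −0.36 for *MYH10*. *MYH9* ranked 23 from the bottom of 1230 genes in that class, *TLN1* 35 and *MYH10* 74. *VCL* and *ACTN4* were closer to the rest of their class, 4668 to 6189 bases, whose median was −0.05: 29.5% and 19.8% of its genes had a log2 fold change at or below theirs. *MYL12A* (0.10) and *TAGLN2* (0.10) stood near the medians of their classes, 0.11 and 0.08. For *MYL9*, 8.46% of the genes of its class were at or below its value, if its length holds.

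**Figure D4:**
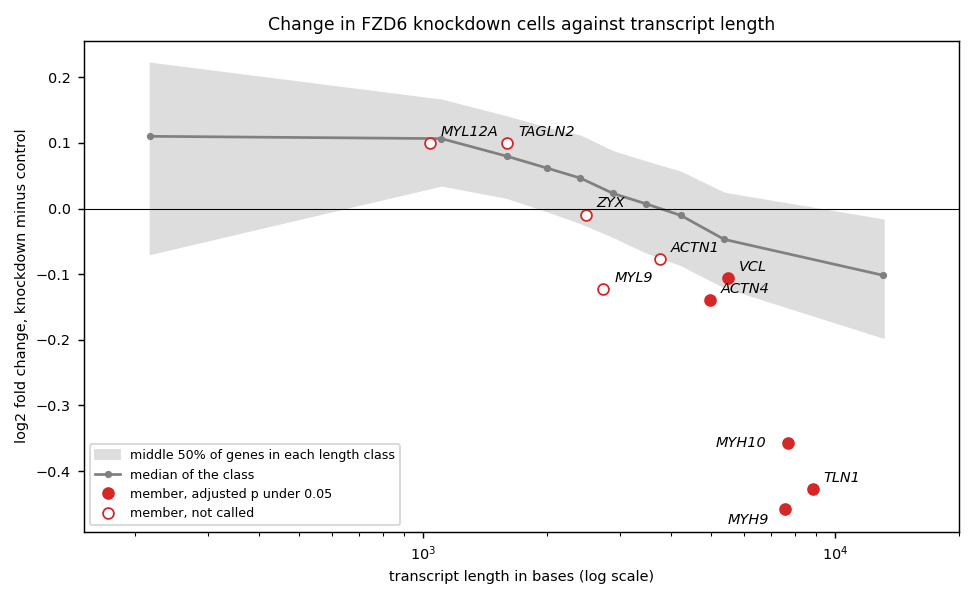
Log2 fold change of knockdown against control (y axis) by transcript length (x axis, log scale), with the median and the middle 50% of all tested genes in each of 10 length classes and the 10 members as circles, filled where the adjusted p was under 0.05. *MYH9*, *TLN1* and *MYH10* lie far under the band of the longest class, while *MYL12A* and *TAGLN2* lie on the line of medians.

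Per library, the mean log2 level of the long members minus that of the short members was −1.63 ± 0.04 in control, −1.93 ± 0.01 with shRNA1 and −1.93 ± 0.10 with shRNA2 (SD, n = 3 each). The control libraries, from −1.66 to −1.58, did not overlap with the knockdown libraries, from −2.04 to −1.84. With each library's trend in length removed across all genes, the difference between knockdown and control went from −0.30 to −0.17, still with no overlap. With *MYL9* counted as short these were −0.28 and −0.15, also with no overlap. After this removal *MYH9* (−0.36, limma adjusted p = 0.00256), *TLN1* (−0.31, limma adjusted p = 0.000415) and *MYH10* (−0.26, limma adjusted p = 0.00727) remained lower. The calls of *VCL* (−0.06, limma adjusted p = 0.107) and *ACTN4* (−0.10, limma adjusted p = 0.146) were lost. *MYL12A* moved from 0.10 to −0.01 and *TAGLN2* from 0.10 to 0.02. What makes length move with the groups was not tested.

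For most members a single RefSeq accession carried nearly all of the signal. *MYH9* and *TLN1* have 1 accession each in the tables, and the main accession held at least 98.9% of the FPKM of *ACTN4*, 99.0% of *TAGLN2* and 99.2% of *VCL* in every library. *MYH10* drew 86.1% of its control FPKM from NM_005964 and 9.89% from NM_001256095, and these shares were 86.8% and 9.43% with shRNA1 and 87.3% and 8.75% with shRNA2. *MYL12A* drew 64.9% from NM_001303048 and 32.9% from NM_006471 in control. *ZYX* was divided between NM_001010972 (56.8%) and NM_003461 (40.4%), which have the same listed length, and the share of the former ran from 46.6% to 65.0% among libraries. Cufflinks divides reads between overlapping transcripts by a model, so these shares are estimates.

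Around these 10 genes, the other parts of the machinery moved in a mixed way. Of 79 listed genes, 75 were tested, and 5 were called higher and 10 lower in knockdown against control, beside 13.5% and 7.1% of all tested genes. With the trend in length removed 2 of the 5 and 7 of the 10 stayed called. *PPP1CB* and *CRKL* were then newly called higher and *CAPZB*, *ARPC1B* and *EVL* lower, which made 4 higher and 10 lower. Of 12295 genes in that fit 816 were called higher and 705 lower. Without that removal, the median log2 fold change of the 75 tested genes of the lists was −0.01, beside 0.03 over all tested genes. In the myosin II list, *MYH14*, the third non-muscle heavy chain, fell from 9.78 ± 0.356 to 7.74 ± 0.302 FPKM (SD, n = 3 and 6; log2 fold change −0.30, limma adjusted p = 0.00245). The light chains *MYL6* (0.17, limma adjusted p = 0.0110) and *MYL12B* (0.16, limma adjusted p = 0.00547) rose, and *MYL6B* was not called. All 3 heavy chains were thus lower, and the only light chain calls of this comparison were higher. With the trend in length removed *MYH14* stayed called (−0.22, limma adjusted p = 0.00974), while *MYL6* (0.05, limma adjusted p = 0.211) and *MYL12B* (0.06, limma adjusted p = 0.148) did not. Quantile normalization likewise left *MYH14* called (−0.30, limma adjusted p = 0.00247) and not *MYL6* (0.04, limma adjusted p = 0.224) or *MYL12B* (0.04, limma adjusted p = 0.318).

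Among 14 regulators of myosin II, 4 fell and 1 rose, beside 7.1% and 13.5% of all tested genes. Those that fell were the kinases *CIT* (−0.39, limma adjusted p = 0.00258), *CDC42BPA* (−0.34, limma adjusted p = 0.0115) and *CDC42BPB* (−0.26, limma adjusted p = 0.00289) and the membrane-linked actin-binding *SVIL* (−0.16, limma adjusted p = 0.0114). The GTPase *RHOC* rose (0.20, limma adjusted p = 0.0258). With the trend in length removed *CIT* (−0.27), *CDC42BPA* (−0.19) and *CDC42BPB* (−0.18) stayed called, and *SVIL* (−0.07, limma adjusted p = 0.105) and *RHOC* (0.11, limma adjusted p = 0.112) did not. The *RHOC* call was also lost in 3 of 9 fits that leave out 1 library (limma adjusted p up to 0.110), and that of *CDC42BPA* in 1 of 9 (limma adjusted p = 0.0576). *ROCK1*, *ROCK2* and *RHOA* were not called. *MYLK*, the myosin light chain kinase, was picked out after its values were seen, since it differed between the shRNAs. It was called lower with each: −0.23 with shRNA1 (limma adjusted p = 0.0168) and −0.83 with shRNA2 (limma adjusted p = 0.000199). The difference was −0.60 (limma adjusted p = 0.000680), and knockdown as a whole was not called (limma adjusted p = 0.0704). *MYLK* was 1 of 13 listed genes called between the shRNAs, 4 higher and 9 lower with shRNA2, beside 1.92% and 4.79% of all tested genes. Also chosen after their values were seen, *CFL2* (cofilin-2, −0.59, limma adjusted p = 0.000548), *PFN2* (profilin-2, −0.56, limma adjusted p = 0.000495) and the adaptor *CRK* (−0.46, limma adjusted p = 0.00108) were lower with shRNA2 than with shRNA1. *FERMT2* (kindlin-2) was higher (0.44, limma adjusted p = 0.00403). Against control, 11 listed genes were called lower and 6 higher with shRNA1, and 20 lower and 8 higher with shRNA2, beside the shares of 7.19% and 11.7% and of 11.4% and 15.3% over all tested genes.

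The counts of the next lists stand beside 7.1% of all tested genes called lower and 13.5% called higher. Of 16 actins and assembly factors 1 was called, *CAPZA1*, a subunit of capping protein, which rose (0.19, limma adjusted p = 0.0232). *ACTB* stood at 3132 ± 67.8 FPKM in control and 3171 ± 151 FPKM in knockdown (SD, n = 3 and 6). Of 8 tropomyosin and calponin-family genes, *TPM3* rose (0.13, limma adjusted p = 0.0122) and 7 were not called, among them *TAGLN* at 2.37 FPKM in control. Of 17 tested focal adhesion scaffold and signaling genes, *TNS3*, which links integrins to actin like talin, fell from 24.2 ± 0.990 to 17.5 ± 1.21 FPKM (−0.45, limma adjusted p = 0.00280), and *PTK2*, *PXN* and *ILK* were not called. The paralog *TLN2* was at 0.342 FPKM in control and not tested. In the zyxin family and related proteins *LPP* (−0.55, limma adjusted p = 0.00714), *PDLIM5* (−0.14, limma adjusted p = 0.0371) and *LASP1* (−0.14, limma adjusted p = 0.0422) fell, 3 of 13 genes, and 10 were not called. With the trend in length removed *LPP* (−0.32, limma adjusted p = 0.0572) and *LASP1* (−0.12, limma adjusted p = 0.0841) lost their call, and *PDLIM5* (−0.11, limma adjusted p = 0.0406) and *TNS3* (−0.35, limma adjusted p = 0.00358) stayed called. Of the transcription factors of the SRF pathway, *MRTFB* fell (−0.31, limma adjusted p = 0.0142, and −0.19 with the trend in length removed, limma adjusted p = 0.0250), while *SRF* (−0.01) and *MRTFA* (−0.16, limma adjusted p = 0.0870) were not called. With quantile normalization *CAPZA1* (0.14, limma adjusted p = 0.106) and *TPM3* (0.03, limma adjusted p = 0.455) were not called. *PDLIM5* and *LASP1* lost their call in 7 of 9 fits that leave out 1 library, with limma adjusted p up to 0.145 and 0.143. *CAPZA1* kept its call in 6 of these 9 fits (limma adjusted p up to 0.0900) and *SVIL* in 7 (up to 0.0553). *MRTFB*, *TPM3* and *MYL6* kept theirs in 8 each (limma adjusted p up to 0.0685, 0.0555 and 0.0528). All 10 of the genes that fell are long: *LPP* has 18221 bases and *TNS3* 7618. Of the 5 that rose, *CAPZA1* (3020 bases) and *TPM3* (3093) are long too, and *MYL6* (717), *MYL12B* (1209) and *RHOC* (1414) are short. No share of long genes over the lists was computed to set beside these counts.

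**Figure D5:**
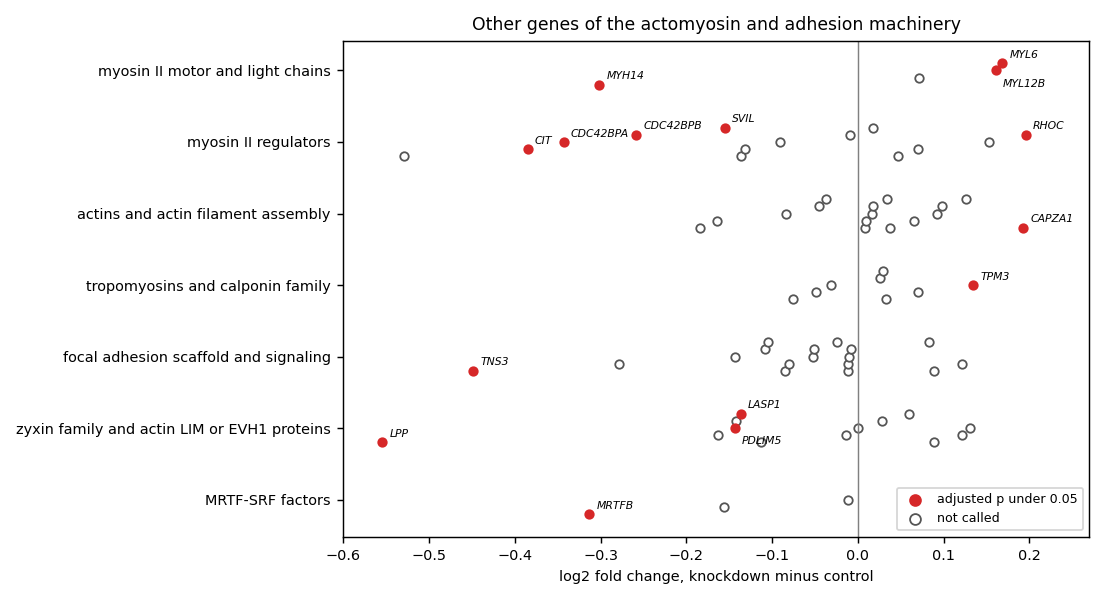
Log2 fold change of knockdown against control (x axis) for 75 tested genes of 7 lists (rows), 1 point per gene, offset vertically for legibility, filled and named where the limma adjusted p was under 0.05. The 10 genes called lower include *LPP*, *TNS3* and *CIT*, and the 5 called higher all lie at or under 0.20.

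The profile of *MYH9* over the 9 libraries was most like that of *NAV1* (Pearson's r 0.99), *PRRC2A* (0.99) and *FASN* (0.99), among the 8598 tested genes that averaged 5 FPKM or more. That of *MYL12A* was most like those of *TOR1A* (0.97), *RPL23* (0.96) and *PTPMT1* (0.96). The points of these correlations share the libraries and the split between the groups. *NAV1* (12265 bases), *PRRC2A* (6874) and *FASN* (8565) are long and were called lower, with *FASN* at a log2 fold change of −0.71 (limma adjusted p = 0.000685).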

How the data were processed

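RNA-seq of 9 DU145 libraries was used, in 3 groups of 3 taken from the labels. Per the study's methods, the authors prepared stranded mRNA libraries, mapped them with STAR and computed FPKM with Cufflinks. Their methods give a mouse build, but the loci in the tables are human hg38, which the submitters' processing notes name too. The deposited FPKM are scaled for depth and length and hold no counts, so the precision of single values is known only through an estimate of depth.

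Of 73240 RefSeq accessions, 72645 were matched to a gene (RefSeq, GRCh38.p14), and FPKM were summed per gene symbol over all loci. Genes with a status other than OK (42) were left out. Genes averaging 1 FPKM or more were tested as log2(FPKM + 1), with limma 3.58.1 in R 4.3.3 and Benjamini-Hochberg adjustment over 12509 genes at 0.05. Fold changes are on this scale, which understates those of low genes. Knockdown (6) was compared with control (3) in a model of 2 groups, and the shRNAs in a model of 3 groups. Ratios were tested by two-sided exact permutation over 84 splits. Length trends were removed per library by lowess (span 0.3), with lengths for 98.3% of tested genes. The tests were tried on simulated data with planted changes.

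The members and lists were chosen with earlier results of these data known. All 10 members are named. Other genes are named where limma called them, up to 2 rises and 2 falls per list, or all where a list held 5 or fewer calls, beside genes named as not called. Replicate numbers did not pair the libraries (correlation of deviations −0.07 to 0.11 over 9 pairs, 1 above 0.1).

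Alternatives were a pseudocount of 0.1, no filter or 5 FPKM, median centring, quantile normalization, the replicate block, a trended prior, leaving out each library, the highest accession, and only the 6 libraries compared. Tables were made with Python 3.11.15 and pandas 2.3.3.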

Additional observations from a re-analysis of the deposited data

Results flagged for a closer look

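In 4 of 14 measures (10 levels and 4 ratios), 1 of the 6 knockdown libraries stood apart from the other 5. The rule was the gap over the range (limit 0.625), which flags about 1 in 20 measures by chance when all 6 values come from 1 group. Here they come from both shRNAs, and the ratios are built from the levels, so the 4 flags cannot be set against that rate. All 4 were in libraries of shRNA2. *MYH9* was lowest in replicate 3 of shRNA2, at 135 FPKM against 146 FPKM in the next library. *MYH10* was highest in replicate 2 of shRNA2, at 29.3 FPKM against 25.7 FPKM. The same replicate held the lowest *MYL9*, at 47.2 FPKM against 53.6 FPKM, and the lowest *ACTN4*, at 235 FPKM against 248 FPKM. Without replicate 2 of shRNA2, *MYH10*, *MYH9*, *TLN1*, *VCL* and *ACTN4* were still called lower and *TAGLN2* was called higher. No member differed between the shRNAs by a test of the difference.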

How the results depend on the processing

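*MYH9*, *TLN1* and *MYH10* were called lower in knockdown against control under all 19 settings, with log2 fold changes of −0.51 to −0.36, −0.47 to −0.31 and −0.40 to −0.26. *VCL* was called in 13 of the 19 settings, *ACTN4* in 15 and *ACTN1* in 5.

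The count of members called lower went from 5 to 3 with the length trend removed, for knockdown and for shRNA1, also with the replicate block, and from 6 to 3 for shRNA2 when only the 6 libraries compared were fitted. With 1 library left out it ran from 3 to 6 in each of these comparisons, and the count called higher from 0 to 1 for knockdown and for shRNA2. For knockdown, *ACTN1* joined the 5 called lower with no filter, with a filter of 5 FPKM, with a trended prior and with quantile normalization. Removing the length trend gave log2 differences of 0.14 for *MYL12A* to *MYL9* (adjusted p = 0.119, exact permutation) and −0.028 for *ACTN4* to *ACTN1* (adjusted p = 0.357, exact permutation). With 1 library left out these were 0.19 to 0.25 and −0.070 to −0.052, and 0.32 to 0.33 for *VCL* to *TLN1*.

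Signs turned only for members that were not called. With quantile normalization *MYL12A* was at −0.013 for knockdown and −0.031 for shRNA2, *TAGLN2* at −0.035 for knockdown, −0.053 for shRNA1 and −0.017 for shRNA2, and *ZYX* at −0.043 for shRNA1. With the length trend removed, with or without the replicate block, *MYL12A* was at −0.0087 for knockdown, −0.0021 for shRNA1 and −0.015 for shRNA2, and *ZYX* at −0.027 for shRNA1. For shRNA2 against shRNA1, *TLN1* was at 0.0035 with median centring and 0.019 with quantile normalization. With 1 library left out, *ZYX* ran from −0.028 to 0.021 for knockdown, −0.0024 to 0.045 for shRNA1, −0.070 to 0.028 for shRNA2 and −0.086 to 0.011 between the shRNAs. Between the shRNAs *MYL12A* ran from −0.063 to 0.0067, *TLN1* from −0.036 to 0.033, *VCL* from −0.0040 to 0.039, *ACTN1* from −0.014 to 0.023 and *TAGLN2* from −0.022 to 0.045. The cause of these turns was not tested.

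Over all genes, 2578 were called in knockdown, 1521 with the length trend removed, 1108 with the replicate block as well, 1222 with the highest accession and 997 to 3255 with 1 library left out. For shRNA1 these were 2357, 1510, 1327 and 917 to 3538. For shRNA2 they were 3335, 2117 with only the 6 libraries compared and 2097 to 4195 with 1 left out. Between the shRNAs they were 839, 337 and 333 to 1172. The criteria of the study, applied here to log2(FPKM + 1), called 361 genes, 524 with a pseudocount of 0.1 and 187 with the length trend removed. These are counts of the re-analysis and not those that the study reported. The replicate block alone gave 2377 calls in knockdown and took the call of *ACTN4* with shRNA1 (adjusted p = 0.0513 by limma). Leaving out 1 of 3 libraries leaves few degrees of freedom. From the estimated depth, the counting error was taken for each gene in the library with its fewest fragments. It was 0.45% for *TAGLN2*, 0.52% for *MYH9*, 1.26% for *MYH10* and 1.49% for *MYL9*. For *TLN1* it was 0.56%, but 2.14% from its own confidence bounds.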
